A study of Mus musculus with 12 samples.

Results

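Zinc sulfate given in the drinking water was compared with plain drinking water in mouse liver, in the 6 animals that had received an injection of PBS without any hormone. The comparison covered 13255 of the 54838 genes in the count table, which were those with at least 10 counts in at least 3 of the 12 libraries of the experiment, and 12870 genes met the same minimum within the 6 libraries themselves. All 12 mice were female C57BL/6J animals aged 8 to 14 weeks. For 7 days their drinking water was plain or held 25 mM ZnSO4, after which they were injected intraperitoneally with PBS or with 200 µg of the synthetic glucocorticoid dexamethasone (Dex). The liver was taken 2 h after the injection. The 3 livers on plain water with a PBS injection are called water-PBS and the 3 livers on zinc with a PBS injection zinc-PBS. The Dex-injected groups, water-Dex and zinc-Dex, hold 3 livers each and enter below as a second set of animals in which zinc and plain water were compared. The samples were pieces of whole liver, so a lower level may come from fewer cells of a type or from less RNA per cell, which cannot be told apart here.

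The 6 libraries held 9091152 to 11622004 counted reads each, and levels are given below as normalised read counts, which are counts divided by a size factor per library, either per liver or as mean ± SD (n = 3). Genes were called where the log2 fold change exceeded 0.8 in either direction and the adjusted p of DESeq2 was under 0.05. Summed hepatocyte markers lay between 1177421 and 1385864 in water-PBS and between 1243799.9 and 1387869.6 in zinc-PBS. Markers of Kupffer, sinusoidal endothelial, stellate and bile duct cells, of blood cells and of gut and mesothelium held no gene with an adjusted p under 0.05, though only 1 monocyte and 1 mesothelial marker were in the fit. Of the 10 pancreatic and 4 fat cell markers 0 reached the count minimum, so that these were not tested. The 8 pancreatic enzyme genes *Cpa1*, *Cpb1*, *Cela3b*, *Ctrb1*, *Pnlip*, *Amy2a5*, *Try4* and *Prss2* were at 0 in the 6 libraries. The summed stellate cell markers were the marker sum whose groups did not overlap, with 6718 to 6923 in water-PBS and 6218 to 6428 in zinc-PBS (exact two-sided permutation test p = 0.1, the smallest that 3 against 3 mice allow).

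The library zinc-PBS 1 stood apart from the others. It held 13 genes at more than 4 times the level of the next highest of the 6 libraries, against 1 such gene in water-PBS 1 and 0 in each of the other 4 libraries. The first principal component of the 6 libraries held 40.9% of the variance of the most variable genes and placed zinc-PBS 1 at 10.3. Zinc-PBS 2 and 3 lay at 2.34 and 1.16 and the water-PBS libraries between -7.83 and -2.09, so the 2 groups were apart on it as well. Summed neutrophil markers were 154 in zinc-PBS 1 and 49.1 to 85.2 in the other 5 libraries, with *Camp* at 0 in each library. Counts that rest on zinc-PBS 1 are given below with and without it.

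Cells hold zinc within narrow limits through 3 families of proteins. Metallothioneins are small cysteine-rich proteins that bind zinc in the cytosol, ZIP proteins of the Slc39 family carry zinc into the cytosol, and ZnT proteins of the Slc30 family carry it out or into vesicles. The zinc finger factor MTF1 senses cytosolic zinc and binds metal response elements, short sequences with the core TGCACNC or TGCGCNC that lie in clusters in the promoters of its targets, of which the metallothionein genes and the exporter gene *Slc30a1* are the best known. The liver takes up much of the zinc absorbed from the gut and is the main site of metallothionein synthesis.

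The promoters of the metallothionein genes *Mt1* and *Mt2* and of *Slc30a1* are shown because the transcripts of these zinc storage and export genes rose, as described below. Each line gives the 250 bases before the RefSeq transcription start on GRCm38.p6, 5′ to 3′ on the gene's own strand, in lower case with matches to the metal response element core on either strand in capitals.
Mt1, chr8:94178839-94179088, strand +: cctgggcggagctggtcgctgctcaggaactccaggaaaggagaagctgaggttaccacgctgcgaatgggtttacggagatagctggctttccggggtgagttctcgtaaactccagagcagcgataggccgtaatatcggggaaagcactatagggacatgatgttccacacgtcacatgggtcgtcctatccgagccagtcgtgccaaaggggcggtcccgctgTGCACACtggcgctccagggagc
Mt2, chr8:94172368-94172617, strand +: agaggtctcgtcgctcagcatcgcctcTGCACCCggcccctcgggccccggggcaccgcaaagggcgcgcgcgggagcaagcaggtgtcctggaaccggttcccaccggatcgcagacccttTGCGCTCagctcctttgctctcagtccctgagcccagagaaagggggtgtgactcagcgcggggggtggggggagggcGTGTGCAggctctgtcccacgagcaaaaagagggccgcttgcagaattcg
Slc30a1, chr1:191906531-191906780, strand +: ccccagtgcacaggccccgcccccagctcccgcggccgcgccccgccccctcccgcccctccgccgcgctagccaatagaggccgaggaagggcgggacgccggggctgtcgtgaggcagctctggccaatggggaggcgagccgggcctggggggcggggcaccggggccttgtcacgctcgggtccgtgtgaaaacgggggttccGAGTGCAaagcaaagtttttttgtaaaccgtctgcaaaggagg
With the first 50 bases after the start included, the core was matched 3 times at *Mt1*, 4 times at *Mt2* and 2 times at *Slc30a1*. The search covered TGCACNC or TGCGCNC on the gene's strand, and on the other strand GNGTGCA or GNGCGCA, and matches that overlap each other were counted by their start. Of 32851 RefSeq promoters of the same length, 25.7% held at least 1 match, 7.11% at least 2 and 0.517% at least 4. Promoters were found for 9908 genes of the fit by symbol, and of these genes 39.8% had at least 1 match, 1288 had at least 2 and 99 at least 4. Of the genes called higher 3 of the 7 with a promoter in the table had a match, and of the genes called lower 4 of 6. Of the genes with an adjusted p under 0.05 and a promoter in the table, 16 of 22 higher genes had a match and 7 had at least 2, and 10 of 16 lower genes had a match and 0 at least 2. A match is a description of the letters and says nothing about binding.

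Zinc changed few liver genes. Of 9396 genes with an adjusted p, 19 were called, which is 0.202%, with 11 higher (0.117%) and 8 lower (0.0851%) in zinc-PBS than in water-PBS. The metallothionein genes *Mt2* and *Mt1* rose most, and the glucose-6-phosphatase gene *G6pc*, the mitochondrial carrier gene *Slc25a25* and the zinc importer gene *Slc39a4* fell most. Without a fold change threshold 48 genes passed (0.511%), with 28 higher (0.298%) and 20 lower (0.213%). The median log2 fold change over the 13255 genes was -0.0029, with a 5th percentile of -0.26 and a 95th percentile of 0.28. A test against the threshold itself showed 10540 genes (79.5%) to have changed by less than 0.8 on the log2 scale. The other 2696 genes that were neither called nor bounded in this way had a median of 15.3 normalised reads against 218 for the bounded genes, and a change past the threshold was neither shown nor excluded for them. All 48 genes had groups that did not overlap, as had 11.7% of the 13255 genes.

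**Figure D1:**
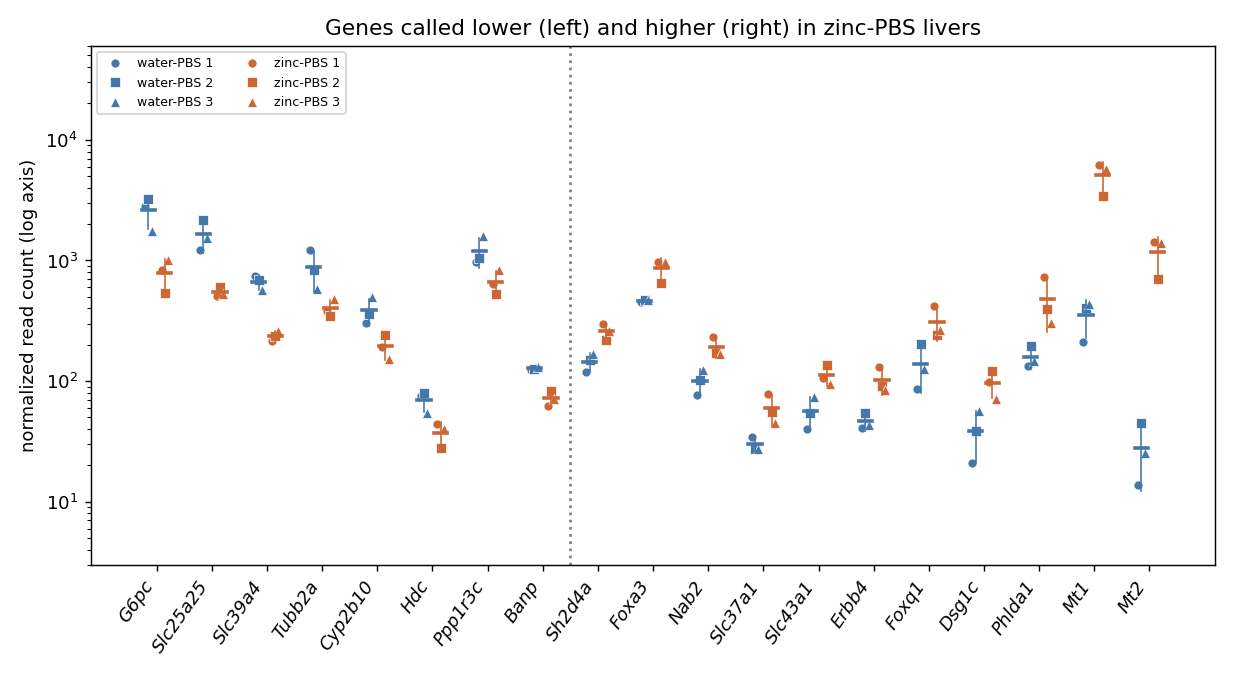
Normalised read counts (log axis) of the 19 genes called in zinc-PBS against water-PBS, 1 symbol per liver, with the mean (short line) and SD (vertical line) of 3 mice. The 8 genes left of the dotted line were lower and the 11 genes right of it higher with zinc, and in none of them do the groups overlap.

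The transcripts of zinc storage genes rose most. *Mt1* (ENSMUSG00000031765, chr8:94179082-94180327) and *Mt2* (ENSMUSG00000031762, chr8:94172664-94173568) lie next to each other and encode the metallothioneins of the liver. *Mt1* was read 209.6, 403 and 437 times in the water-PBS livers and 6233, 3437 and 5684 times in the zinc-PBS livers. *Mt2* was read 13.7, 44.7 and 25.4 times and 1417, 702 and 1395 times. For both genes every zinc-PBS liver lay far above every water-PBS liver, and zinc-PBS 2 was the lowest of its group. The rise was 14.6-fold for *Mt1* (log2 fold change 3.87, SE 0.23, adjusted p = 2.94e-60) and 41.6-fold for *Mt2* (log2 fold change 5.38, SE 0.38, adjusted p = 3.97e-42). Per kilobase of exon, *Mt1* went from 281 ± 98.5 to 4108 ± 1189 normalised reads and *Mt2* from 47.5 ± 26.6 to 1992 ± 691. Exon length was that of all annotated exons of a gene merged. It was 588 bases for *Mt2* and 1246 for *Mt1*, which is the whole span of *Mt1*, so these levels depend on the annotated transcripts. *Mt3*, the metallothionein of brain, was at 0 in the 6 libraries and *Mt4*, that of stratified epithelia, had at most 1 count. *Mtf1*, which encodes the zinc-sensing factor itself, was at 205 ± 23.7 in water-PBS and 181 ± 6.13 in zinc-PBS (log2 fold change -0.18, 95% interval -0.43 to 0.07), a change shown to be smaller than 0.8. An antisense gene, *Gm45774*, overlaps *Mt2*, and the strand setting of the counting was not stated, so that reads of the pair could not be assigned with certainty. *Gm45774* had 2.11, 0 and 0 normalised reads in water-PBS and 31.7, 9.64 and 12.7 in zinc-PBS, few beside those of *Mt2*, and it received no adjusted p.

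Among the zinc importers 1 of 12 measured genes passed, and it fell. Only 8 of the 12 had an adjusted p. *Slc39a4* (ENSMUSG00000063354, chr15:76612383-76617384) encodes ZIP4, the importer that takes up dietary zinc in the gut and whose loss causes acrodermatitis enteropathica. It was read 749, 693 and 564 times in water-PBS and 215, 235 and 259 times in zinc-PBS, which are well separated groups with little spread in zinc-PBS. It was 2.83-fold lower with zinc (log2 fold change -1.50, SE 0.15, adjusted p = 3.41e-19). Per kilobase of exon the most abundant importer of the water-PBS livers was *Slc39a14* (265 ± 28.2), which encodes ZIP14, followed by *Slc39a4* (215 ± 30.5) and *Slc39a1* (214 ± 9.93), which did not differ beyond their spread from each other. The merged exon lengths used were 10550 bases for *Slc39a14*, 3106 for *Slc39a4* and 2364 for *Slc39a1*, and the order depends on them. With zinc, *Slc39a4* stood at 76.1 ± 7.17 per kilobase, near *Slc39a9* (81.4 ± 2.67) and *Slc39a11* (71.2 ± 2.46), while *Slc39a14* stood at 309 ± 36.3. *Slc39a14* had a log2 fold change of 0.22 (95% interval -0.02 to 0.47) and *Slc39a9*, an importer of the Golgi, one of 0.04 (-0.12 to 0.19). Of the 12 importers, 9 were shown to have changed by less than 0.8, namely *Slc39a1*, *Slc39a3*, *Slc39a6*, *Slc39a7*, *Slc39a8*, *Slc39a9*, *Slc39a11*, *Slc39a13* and *Slc39a14*. *Slc39a5* and *Slc39a10* were neither called nor bounded and were too low for an adjusted p. *Slc39a10*, an importer of the cell surface, was read 76.9, 56.6 and 62.9 times in water-PBS and 51.6, 39.5 and 24.5 times in zinc-PBS (log2 fold change -0.76, 95% interval -1.26 to -0.26). *Slc39a5*, an importer that faces the blood side of gut and pancreas cells, was read 10.5, 16.4 and 6.62 times and 18.1, 23.7 and 33.5 times (log2 fold change 1.14, 95% interval 0.27 to 2.01). The groups did not overlap for either gene. They did not overlap for the bounded *Slc39a1* either, which was read 485, 531 and 498 times in water-PBS and 613, 545 and 578 times in zinc-PBS (log2 fold change 0.20, 95% interval 0.01 to 0.38, adjusted p = 0.70). *Slc39a2* and *Slc39a12* did not reach the count minimum. The median log2 fold change over the 12 importers was 0.0032, beside -0.0029 over all genes.

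Among the zinc exporters 1 of 7 measured genes passed in the PBS-injected livers, and it rose. *Slc30a1* (ENSMUSG00000037434, chr1:191906767-191913247) encodes ZnT1, the exporter of the cell surface. Its reads numbered 459, 551 and 661 in water-PBS and 860.4, 869 and 990.3 in zinc-PBS, with every zinc-PBS liver above every water-PBS liver. The increase was 1.63-fold (log2 fold change 0.70, SE 0.13, adjusted p = 4.06e-05) and remained under the fold change threshold. *Slc30a1* overlaps *1700034H15Rik* on the other strand. *Slc30a10*, which encodes a manganese exporter of the canalicular face of hepatocytes, was read 914, 705 and 705 times in water-PBS and 514, 554 and 627 times in zinc-PBS. Its groups did not overlap, but the difference missed the threshold (log2 fold change -0.46, 95% interval -0.76 to -0.15, adjusted p = 0.282). In the Dex-injected livers *Slc30a10* was lower with zinc and passed (log2 -0.796, SE 0.16, adjusted p = 0.000459). A difference between its effects under PBS and Dex was not shown. The exporters of the secretory pathway *Slc30a4*, *Slc30a5*, *Slc30a6* and *Slc30a7* and the mitochondrial *Slc30a9* had log2 fold changes between -0.00254 and 0.10, and these 5 genes and *Slc30a10* were shown to have changed by less than 0.8. *Slc30a2*, *Slc30a3* and *Slc30a8* did not reach the count minimum. The median over the 7 exporters was 0.07.

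**Figure D2:**
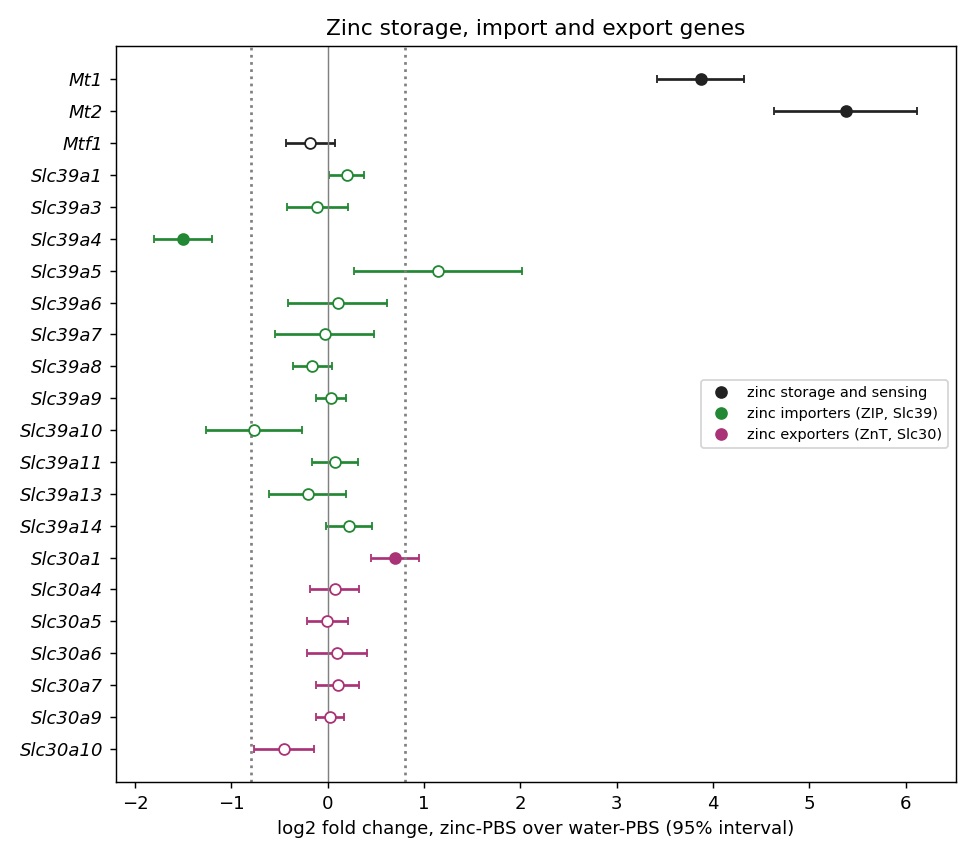
Log2 fold change of zinc-PBS over water-PBS with its 95% interval for the 22 zinc storage, import and export genes in the fit; filled symbols had an adjusted p under 0.05 and dotted lines mark a change of 0.8. *Mt1* and *Mt2* lie far right at 3.87 and 5.38, *Slc39a4* lies left at -1.50, *Slc30a1* at 0.70, and most transporters lie near 0.

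Genes for other metals showed no call. Of 11 copper genes in the fit, 0 passed and all 11 were shown to have changed by less than 0.8, with a median log2 fold change of 0.04. The ferroxidase gene *Cp* was at 17025 ± 2314 in water-PBS and 17946 ± 563 in zinc-PBS, and *Sod1*, which encodes the copper and zinc superoxide dismutase, was at 5436 ± 491 in water-PBS and 5661 ± 104 in zinc-PBS. Of 21 iron genes 0 passed and 17 were bounded, with a median of 0.03. Transferrin (*Trf*) had a log2 fold change of 0.08 (95% interval -0.14 to 0.30) and ferritin heavy chain (*Fth1*) one of 0.06 (-0.07 to 0.19).

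Among the 8 genes called lower were *G6pc* and *Ppp1r3c*, of glucose and glycogen metabolism, and *Slc25a25*, of mitochondrial nucleotide transport. *G6pc* (ENSMUSG00000078650, chr11:101367561-101377903) encodes the catalytic subunit of glucose-6-phosphatase, which releases free glucose from the hepatocyte. It was read 2809.7, 3258 and 1756 times in water-PBS and 831, 540.1 and 1000.2 times in zinc-PBS. The highest zinc-PBS liver lay well below the lowest water-PBS liver, and the fall was 3.3-fold (log2 fold change -1.72, SE 0.34, adjusted p = 0.000351). *Slc25a25* (ENSMUSG00000026819, chr2:32414487-32451445) encodes a calcium-regulated carrier that exchanges ATP-magnesium for phosphate across the inner mitochondrial membrane. Its reads numbered 1221, 2172 and 1547 in water-PBS and 512, 597 and 523 in zinc-PBS, where the livers were close to each other. The fall was 3.03-fold (log2 fold change -1.60, SE 0.19, adjusted p = 1.20e-13). *Slc25a25* overlaps *Naif1* on the other strand. *Ppp1r3c*, which encodes a subunit that directs protein phosphatase 1 to glycogen, was read 963, 1055 and 1591 times and 642, 523 and 836 times, and fell 1.8-fold (log2 fold change -0.85, SE 0.19, adjusted p = 0.00518). Higher with zinc was *Foxa3*, which encodes a hepatocyte forkhead factor that binds metabolic genes. It was read 449, 473 and 475 times in water-PBS, with almost no spread, and 966, 645 and 963 times in zinc-PBS (log2 fold change 0.88, SE 0.14, adjusted p = 8.32e-07). *Slc37a1*, which encodes a glucose-6-phosphate and phosphate antiporter of the endoplasmic reticulum, was read 34.8, 27.4 and 27.6 times and 77.9, 55.2 and 45.3 times (log2 fold change 0.99, SE 0.27, adjusted p = 0.0492), close to the threshold for adjusted p.

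The rest of the glucose lists did not move in 1 direction. Of 24 genes of gluconeogenesis and glucose output, *G6pc* and *Foxa3* passed, 17 were shown to have changed by less than 0.8, and the median was 0.08. *Pck1*, which encodes phosphoenolpyruvate carboxykinase, was read 24199, 17108 and 6732 times in water-PBS and 14119, 6492 and 6454 times in zinc-PBS, and the wide overlap left its change open (log2 fold change -0.83, 95% interval -1.69 to 0.03). *Fbp1*, which encodes fructose-1,6-bisphosphatase, had a log2 fold change of -0.16 (95% interval -0.35 to 0.03). Of 16 glycogen genes only *Ppp1r3c* passed, and 13 were bounded, among them glycogen phosphorylase *Pygl* (-0.08) and *Ugp2*, which makes UDP-glucose (0.08).

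Several genes of growth factor signalling were higher with zinc. Of 29 immediate early and ERK feedback genes in the fit 20 had an adjusted p. Of these, 4 were called and all 4 were higher, namely *Phlda1*, *Erbb4*, *Nab2* and *Sh2d4a*. Over all 9396 genes with an adjusted p 0.117% were called higher. These members were listed with earlier results of these data known, so that the count is not independent evidence of a direction. *Phlda1* encodes a pleckstrin homology-like protein induced early by growth factors. It was read 134, 196 and 148 times in water-PBS and 732, 399 and 304 times in zinc-PBS, with zinc-PBS 1 highest and no overlap. The rise was 3-fold (log2 fold change 1.58, SE 0.25, adjusted p = 8.06e-07), and 1.14 on the log2 scale without zinc-PBS 1, where it remained called. *Erbb4*, which encodes a receptor tyrosine kinase for neuregulins, was read 41.1, 54.7 and 43.1 times and 131, 91.2 and 85.2 times (log2 fold change 1.14, SE 0.24, adjusted p = 0.00211). *Nab2*, which encodes a corepressor of EGR factors, was read 76.9, 101 and 125 times and 231, 172 and 169 times (log2 fold change 0.92, SE 0.21, adjusted p = 0.0073). *Sh2d4a*, which encodes an SH2 domain adaptor, was read 118, 149 and 169 times and 299, 219 and 261 times (log2 fold change 0.84, SE 0.15, adjusted p = 4.82e-05). For each of these 3 genes the highest liver was zinc-PBS 1, and the groups did not overlap. Without that library none of the 3 stayed called, and *Nab2* received no adjusted p. In edgeR's quasi-likelihood test *Erbb4* (adjusted p = 0.126) and *Nab2* (adjusted p = 0.147) were not called. *Erf*, a repressor that ERK phosphorylates, passed under the fold threshold (189.6, 243 and 232 against 429, 292 and 335, log2 fold change 0.67, SE 0.16, adjusted p = 0.015). The most abundant members, the EGF receptor gene *Egfr* and its feedback inhibitor *Errfi1*, had overlapping groups and log2 fold changes of -0.74 (95% interval -1.56 to 0.09) and -0.15 (-0.81 to 0.51). The median over the 29 genes was 0.34, and -0.06 without zinc-PBS 1, where 2 members had an adjusted p under 0.05, both higher. *Phlda1* and *Nab2* overlap genes on the other strand.

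Of the 24 CAR and PXR targets in the fit, which serve drug metabolism, 3 passed and were lower. Over all 9396 genes with an adjusted p the share that passed and was lower was 0.213%. *Cyp2b10*, which encodes the cytochrome P450 that marks activity of the nuclear receptor CAR, was read 305, 358 and 495 times in water-PBS and 191, 241 and 152 times in zinc-PBS. It was 1.98-fold lower (log2 fold change -0.98, SE 0.22, adjusted p = 0.00307). *Cyp3a11*, which encodes the main PXR-responsive cytochrome P450 of mouse liver, was read 46267, 47580.3 and 45558 times and 27886, 37109.7 and 35039 times (log2 fold change -0.48, SE 0.12, adjusted p = 0.0147). *Ces2a*, which encodes a carboxylesterase, was read 2943, 2922 and 2941 times and 2115, 2457 and 2226 times (log2 fold change -0.37, SE 0.08, adjusted p = 0.00436). The water-PBS livers lay within a narrow range for *Cyp3a11* and *Ces2a*, and the groups of all 3 genes were apart. *Ces2e*, a carboxylesterase gene that is not on the list and was named after its values were seen, was read 2420.1, 2505 and 2050.1 times and 1590.4, 1636 and 1714 times and fell under the fold threshold (log2 fold change -0.50, SE 0.12, adjusted p = 0.018). *Cyp2b10*, *Cyp3a11* and *Ces2a* were the members of the 24 CAR and PXR targets in the fit that passed, 19 of the 24 were shown to have changed by less than 0.8, and the median was 0.04. *Cyp2c29*, the other abundant member, had a log2 fold change of 0.25 (95% interval 0.08 to 0.42). Positive log2 fold changes numbered 15 and negative ones 9. The groups did not overlap for 3 higher and 3 lower members, beside 11.7% of all 13255 genes in either direction. Without zinc-PBS 1, 0 of the 24 passed, and the log2 fold change of *Cyp2b10* was -0.97 with an adjusted p of 0.324. These genes belong to families with near-identical copies, whose reads are uncertain because reads that map to several places were not counted. The same holds for the tubulin gene *Tubb2a* and the murinoglobulin pseudogene *Mug-ps1* below.

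The remaining called genes had varied roles. *Tubb2a*, which encodes a beta-tubulin, fell from 1227, 834 and 575 reads to 378, 349 and 484 (log2 fold change -1.12, SE 0.24, adjusted p = 0.00216). *Hdc*, which encodes the histamine-forming histidine decarboxylase, fell from 74.8, 79.4 and 54.1 to 44.4, 28.1 and 39.9 and lay just inside the threshold (log2 fold change -0.90, SE 0.25, adjusted p = 0.0499). *Banp*, which encodes a nuclear DNA-binding protein, fell from 124, 127 and 131 to 62.5, 83.3 and 71.6 (log2 fold change -0.81, SE 0.18, adjusted p = 0.00216). Among these 3 genes *Banp* had the smallest spread in water-PBS and *Tubb2a* the widest.

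*Dsg1c*, which encodes a desmosomal cadherin, rose from 21.1, 38.3 and 56.3 reads to 98.7, 122 and 71.6 (log2 fold change 1.34, SE 0.29, adjusted p = 0.00211). *Foxq1*, which encodes a forkhead factor, rose from 86.4, 203 and 127 to 423, 243 and 267 (log2 fold change 1.16, SE 0.31, adjusted p = 0.0384). *Slc43a1*, which encodes the neutral amino acid transporter LAT3, rose from 40.0, 54.7 and 74.0 to 107, 136 and 94.2 (log2 fold change 1.0, SE 0.25, adjusted p = 0.015). The gap between the groups was narrow for all 3 genes, where the highest water-PBS and lowest zinc-PBS livers lay near each other. *Slc43a1*, a transporter gene listed with earlier results known, was the member that passed among 26 genes listed for amino acid degradation and the urea cycle. No enzyme gene of this list passed, 24 of the 26 genes were bounded, and the median was 0.12. The urea cycle genes *Cps1* (0.23, 95% interval -0.05 to 0.50) and *Ass1* (0.12, -0.19 to 0.43) were the most abundant of the 26. *Banp*, *Foxq1* and *Slc37a1* overlap a gene on the other strand.

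Of the 19 genes 6, namely *Mt1*, *Mt2*, *Slc39a4*, *G6pc*, *Slc25a25* and *Phlda1*, stayed called in all 14 alternative analyses run, and 9 were called by edgeR, namely these 6 with *Foxa3*, *Sh2d4a* and *Banp*. Without zinc-PBS 1 the calls of 9 genes were lost, with log2 fold changes of -1.08 for *Tubb2a*, -0.97 for *Cyp2b10*, -0.82 for *Ppp1r3c*, -0.72 for *Banp*, 0.73 for *Sh2d4a*, 0.79 for *Foxa3*, 1.04 for *Slc43a1*, 0.92 for *Erbb4* and 0.88 for *Foxq1*, and *Hdc*, *Nab2*, *Slc37a1* and *Dsg1c* received no adjusted p. Without water-PBS 1 the calls of *Tubb2a* (-0.81), *Hdc* (-0.85), *Sh2d4a* (0.71), *Nab2* (0.76), *Slc43a1* (0.81), *Foxq1* (0.91) and *Dsg1c* (1.05) were lost, and *Slc37a1* received no adjusted p. Leaving out water-PBS 2 lost *Hdc* (-0.79), *Nab2* (0.92), *Slc37a1* (0.93) and *Slc43a1* (0.98). Leaving out water-PBS 3 lost *Cyp2b10* (-0.77), *Ppp1r3c* (-0.60), *Banp* (-0.79), *Slc37a1* (0.94) and *Foxq1* (1.10). Leaving out zinc-PBS 2 lost *Hdc* (-0.73), *Ppp1r3c* (-0.70), *Slc37a1* (1.04), *Slc43a1* (0.84) and *Dsg1c* (1.15), and leaving out zinc-PBS 3 lost *Cyp2b10* (-0.83), *Hdc* (-0.95), *Foxa3* (0.79) and *Foxq1* (1.26). None of the 19 genes changed its direction in any of these fits.

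Below the fold threshold 29 further genes passed, of which 17 were higher and 12 lower. In edgeR's quasi-likelihood test only *Slc30a1* (adjusted p = 0.0303) and *Gsto1*, described below (adjusted p = 0.0148), passed among these 29 genes. The largest decreases were those of *Mug-ps1*, a murinoglobulin pseudogene (1291, 1138 and 967 against 671, 704 and 596, log2 fold change -0.79, SE 0.19, adjusted p = 0.0126), and of *Mfsd2a*, which encodes a transporter of lysophosphatidylcholine (405, 610.3 and 510.0 against 312, 385 and 215, log2 fold change -0.74, SE 0.19, adjusted p = 0.0244). The orphan nuclear receptor gene *Nr6a1* (log2 fold change -0.71, SE 0.18, adjusted p = 0.0193), the sugar transporter family gene *Slc45a3* (log2 fold change -0.71, SE 0.19, adjusted p = 0.046) and the sestrin gene *Sesn2* (log2 fold change -0.67, SE 0.18, adjusted p = 0.0492) were lower as well. The largest increases were those of the Krüppel-like factor gene *Klf13* (400.2, 551 and 489 against 1004, 763 and 695, log2 fold change 0.77, SE 0.15, adjusted p = 0.000478) and the clock output gene *Tef* (512, 673 and 850.1 against 1174, 1093 and 1094, log2 fold change 0.72, SE 0.18, adjusted p = 0.0145). *Fbxo31*, which encodes a substrate adaptor of a ubiquitin ligase, rose too (log2 fold change 0.72, SE 0.18, adjusted p = 0.0175). *Gsto1*, which encodes a glutathione transferase and was named after its values were seen, had the lowest adjusted p of the 29 genes with 1281, 1356 and 1497 reads in water-PBS and 1928, 1923 and 1976 in zinc-PBS (log2 fold change 0.50, SE 0.07, adjusted p = 1.73e-08).

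Lipid metabolism held no gene with an adjusted p under 0.05 in 3 lists of 70 genes in the fit. Of 25 genes of cholesterol synthesis 24 had a positive log2 fold change, with a median of 0.27. Groups did not overlap for 8 of the 25, all higher with zinc, beside 11.7% of all 13255 genes in either direction. The most abundant members were *Hmgcs1*, which encodes the cytosolic HMG-CoA synthase (7597, 7174 and 9831 against 10589.5, 8716 and 10637, log2 fold change 0.28, 95% interval -0.10 to 0.66), and the sterol desaturase gene *Sc5d* (0.06, -0.26 to 0.38). Without zinc-PBS 1 the median was 0.24, again with 24 of 25 positive. These genes are regulated together, so their number is not a number of independent observations, and 22 of the 25 were shown to have changed by less than 0.8. Of 25 genes of fatty acid oxidation and PPARα targets 21 had a negative log2 fold change, with a median of -0.18, and 21 were bounded. The 20 genes of fatty acid synthesis had a median of -0.11 with 8 positive and 12 negative, and *Scd1*, which encodes stearoyl-CoA desaturase, was read 115269, 120514 and 120547 times in water-PBS and 130002, 126248 and 81579 times in zinc-PBS (log2 fold change -0.08, 95% interval -0.79 to 0.64), while *Elovl5*, a fatty acid elongase, stood at -0.20 (-0.45 to 0.05).

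Of 13 bile acid genes 0 passed and 9 were bounded, among them the bile salt export pump *Abcb11* (0.09, 95% interval -0.08 to 0.25) and the uptake carrier *Slco1b2* (0.19, -0.02 to 0.40). *Nr0b2*, which encodes the small heterodimer partner that represses bile acid synthesis, was named after its values were seen. It was read 586, 361 and 282 times in water-PBS and 161, 146 and 135 times in zinc-PBS, with no overlap, and just missed the threshold (log2 fold change -1.47, SE 0.40, adjusted p = 0.0525). It was called in a fit of only the 6 libraries (log2 -1.47, adjusted p = 5.57e-08) and without water-PBS 3 (log2 -1.68, adjusted p = 0.023). The other alternatives did not call it.

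Of the stress lists each held 1 gene that passed. All 17 NRF2 targets in the fit were shown to have changed by less than 0.8, with a median of -0.06, and 1 passed. That gene was *Gclc*, which encodes the catalytic subunit of the enzyme that limits glutathione synthesis, and it fell from 3140.4, 3071 and 2552 to 1809.6, 2266 and 2106 (log2 fold change -0.50, SE 0.11, adjusted p = 0.00213). Of the 17 targets, 0 passed without zinc-PBS 1. Catalase (*Cat*) had a log2 fold change of -0.01 (95% interval -0.17 to 0.16) and *Gstm1*, a glutathione transferase, one of -0.08 (-0.32 to 0.16). Of 16 heat shock genes *Hsf2*, which encodes a heat shock factor, was the member that passed, and it fell from 439, 349 and 354 to 286, 226 and 252 (log2 fold change -0.58, SE 0.13, adjusted p = 0.00592). The median of this list was -0.12, with *Hsp90ab1* at -0.02 (-0.20 to 0.16) and *Hspa8* at -0.12 (-0.40 to 0.16). Of 16 genes of endoplasmic reticulum stress *Sesn2* alone passed, from 107, 100.3 and 86.1 to 72.5, 61.4 and 51.6. The chaperone gene *Hspa5* (-0.27, -0.67 to 0.13) and *Herpud1* (0.17, -0.23 to 0.57) had overlapping groups.

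Of 18 clock genes in the fit *Tef* was the member that passed, and it was higher. Without zinc-PBS 1 its log2 fold change was 0.69 with an adjusted p of 0.115, and the 1 member that passed was *Nfil3*, which was lower (log2 -1.11, adjusted p = 0.0214). The genes *Arntl*, *Npas2* and *Nfil3*, named after their values were seen, stood at log2 fold changes of -0.92 (95% interval -1.47 to -0.37), -1.60 (-2.55 to -0.65) and -0.91 (-1.40 to -0.41), and *Per3* and *Nr1d2* at 1.40 (0.24 to 2.56) and 0.44 (0.17 to 0.72). None of these 5 genes passed in the fit of 12 libraries without a replicate block. In the fit of only the 6 libraries *Arntl* (log2 -0.92, adjusted p = 0.00137) and *Per3* (log2 1.41, adjusted p = 0.00578) were called. *Nfil3* (log2 -1.15, adjusted p = 0.000341) and *Per3* (log2 2.12, adjusted p = 0.000341) were called without water-PBS 3, and *Npas2* (log2 -2.09, adjusted p = 0.0415) without zinc-PBS 2. The replicate block called *Nfil3* (log2 -0.86, adjusted p = 0.0287) and *Per3* (log2 1.52, adjusted p = 0.0453). Apart from these fits and *Nfil3* without zinc-PBS 1, the alternatives called none of the 5 genes. The list median was 0.06, and only 9 of the 18 genes were bounded. The most abundant members, *Nr1d1*, which encodes the repressor REV-ERBα, and *Bhlhe40*, stood at 0.12 (-0.24 to 0.47) and -0.05 (-0.92 to 0.82).

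Glucocorticoid receptor targets were looked at because the same experiment gave Dex to other mice. Of 18 targets in the fit, *Mt2* was the member that passed, and the median was -0.18. *Pck1*, described above, and *Tdo2*, which encodes tryptophan dioxygenase (0.19, 95% interval -0.10 to 0.48), were the most abundant. The 15 genes of the growth hormone and IGF axis held 0 that passed, with a median of 0.07, *Igf1* at -0.18 (-0.55 to 0.19) and *Igfbp4* at 0.16 (-0.02 to 0.34). Of the genes that mark the zones of the liver lobule 0 passed. All 13 pericentral genes were shown to have changed by less than 0.8, with *Cyp2e1* at 0.17 (-0.06 to 0.40) and *Rgn* at 0.07 (-0.06 to 0.20), and so were 11 of 12 periportal genes, with *Arg1* at 0.08 (-0.21 to 0.37).

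In the acute phase list 1 of 24 genes passed. *Hp*, which encodes the haemoglobin-binding protein haptoglobin, was read 12426, 17205 and 13643 times in water-PBS and 27239, 19110.3 and 18738 times in zinc-PBS, with zinc-PBS 1 highest (log2 fold change 0.59, SE 0.15, adjusted p = 0.0175). The positive values numbered 22 of 24 with a median of 0.26, and 17 of 24 with a median of 0.04 without zinc-PBS 1, where 0 genes passed and the log2 fold change of *Hp* was 0.39. The abundant fibrinogen gene *Fga* stood at 0.16 (95% interval -0.07 to 0.40) and complement *C3* at 0.15 (-0.08 to 0.37), both bounded.

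Of 28 NF-κB and chemokine genes in the fit 0 passed, although 24 had a positive log2 fold change and the median was 0.59. Without zinc-PBS 1 the median was 0.13, with 23 positive values. The chemokine gene *Cxcl1* was read 63.2, 70.2 and 47.5 times in water-PBS and 3031, 50.9 and 163 times in zinc-PBS. The chemokine gene *Cxcl10* was read 48.4, 43.8 and 50.8 times and 696, 40.3 and 70.7 times, and *Tnfaip3*, which encodes the NF-κB inhibitor A20, 37.9, 36.5 and 46.4 times and 728, 44.7 and 81.5 times. In each of them zinc-PBS 1 was far above the other 5 libraries, and the groups overlapped. The same held for *Nfkbiz*, *Icam1*, *Tlr2*, the acute phase genes *Saa3* and *Socs3* and the early gene *Ier3*, in which zinc-PBS 1 stood at 4.05 to 6.58 times the next library. None of these 9 genes had an adjusted p under 0.05 in the fit of 12 libraries. The lowest was that of *Cxcl1* (log2 fold change 4.16, 95% interval 1.85 to 6.48, adjusted p = 0.0759). Without zinc-PBS 1 its log2 fold change was 0.82 and that of *Tnfaip3* 0.65. *Cxcl1* was called without zinc-PBS 2 (adjusted p = 0.00356) and without zinc-PBS 3 (adjusted p = 0.0465). *Tnfaip3* (adjusted p = 0.0046) and *Tlr2* (adjusted p = 0.000522) were called without zinc-PBS 2. These fits keep zinc-PBS 1. The most abundant members, *Cxcl12* and *Ccl9*, were bounded, at -0.01 (-0.22 to 0.19) and 0.07 (-0.13 to 0.27).

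**Figure D3:**
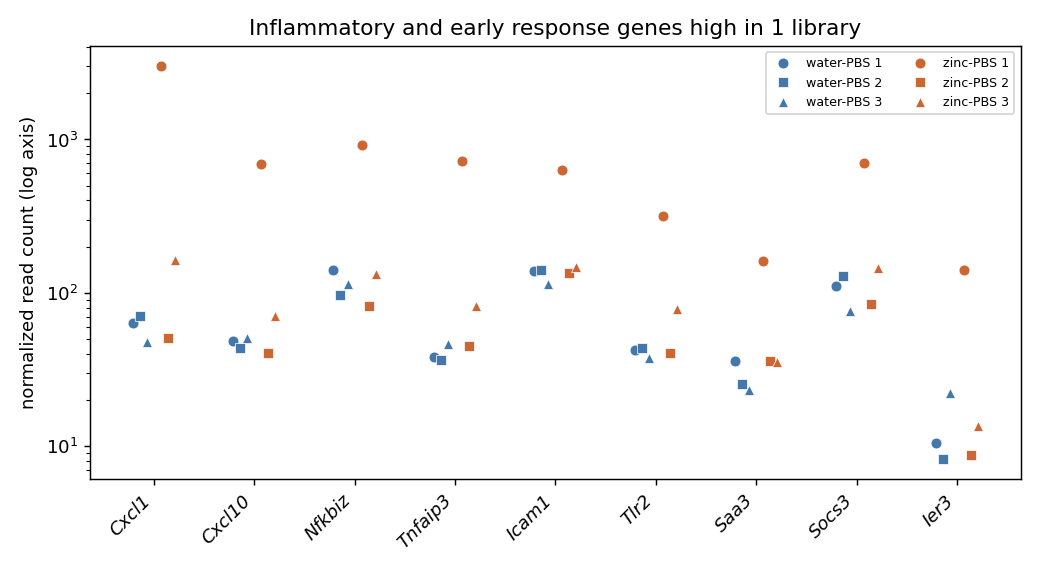
Normalised read counts (log axis) per liver of the 9 NF-κB, acute phase and immediate early genes that stood in 1 library at over 4 times the next. The raised circle is zinc-PBS 1 in all 9 genes, for example 3031 reads of *Cxcl1*, while zinc-PBS 2 lies among or near the water-PBS livers. Zinc-PBS 3 lies above every water-PBS liver for *Cxcl1*, *Cxcl10*, *Tnfaip3*, *Icam1*, *Tlr2* and *Socs3*, for example at 163 reads of *Cxcl1*, and among them for the other genes.

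The interferon-stimulated genes were examined because interferon response genes of the gut are a subject of the study. Of 42 such genes in the liver 0 passed, and 34 were shown to have changed by less than 0.8. The median log2 fold change was -0.11, with 31 genes negative and 11 positive, and -0.11 again without zinc-PBS 1. The GTPase gene *Iigp1* was read 7447, 7941 and 6863 times in water-PBS and 7112, 7296 and 7216 times in zinc-PBS (95% interval of the log2 fold change -0.24 to 0.16), and the tetherin gene *Bst2* 1575, 1522 and 1334 times and 1362, 1306 and 1292 times (-0.33 to 0.01). The groups overlapped for both genes. They did not overlap for 9 of the 42 members, 7 lower and 2 higher with zinc, beside 11.7% of all 13255 genes in either direction. Of the 9 members with an unadjusted p under 0.05 in DESeq2, 8 were lower and 1 higher. *Cmpk2*, which encodes a mitochondrial nucleotide kinase and was named after its values were seen, was read 156, 168 and 117 times in water-PBS and 74.3, 86.8 and 102 times in zinc-PBS. It missed the threshold (log2 fold change -0.75, SE 0.21, adjusted p = 0.0881) and was called without water-PBS 3 (log2 -0.88, adjusted p = 0.023). The other alternatives did not call it.

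At an unadjusted p under 0.05 in DESeq2, the lists in which 0 genes passed held 0 copper, 1 iron, 2 fatty acid synthesis, 10 cholesterol synthesis, 3 fatty acid oxidation, 2 bile acid, 9 NF-κB, 9 interferon-stimulated, 0 growth hormone axis, 1 pericentral and 0 periportal genes, beside 754 of the 13255 genes in all. In edgeR's quasi-likelihood test 0 genes of these lists had an adjusted p under 0.05.

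**Figure D4:**
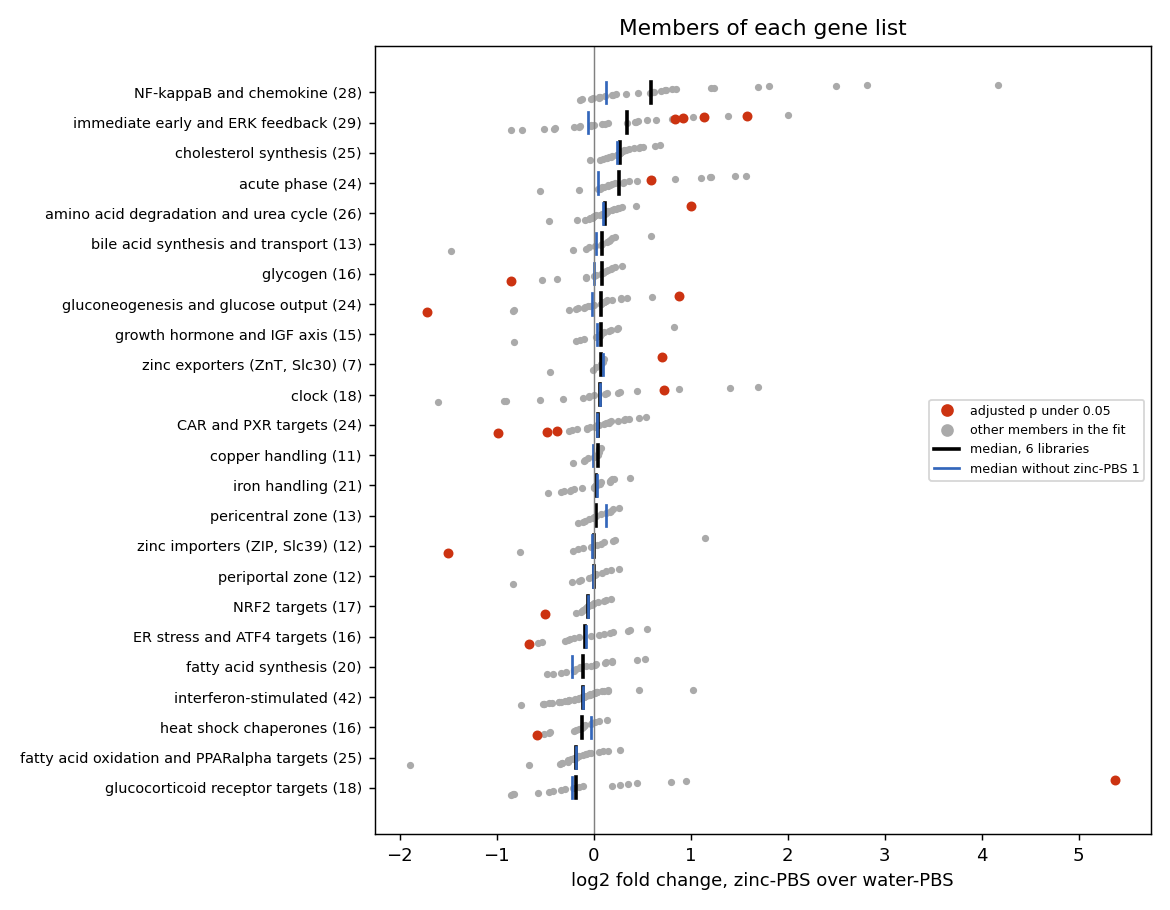
Log2 fold change of zinc-PBS over water-PBS for the members of each gene list (points), with the number of members in the fit in parentheses, the median of the list (black line) and its median without zinc-PBS 1 (blue line). Most medians lie near 0, those of the NF-κB and immediate early lists move from 0.59 to 0.13 and from 0.34 to -0.06 without zinc-PBS 1, and the point far right is *Mt2*.

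The zinc effect was then read in the Dex-injected livers, in which zinc-Dex and water-Dex share no library with the comparison above. Of the 19 called genes, 16 had the same direction there, beside 60.0% of all 13255 genes. The same direction with an unadjusted p under 0.05 was seen for 9 of the 19, beside 8.20% of all genes. An adjusted p under 0.05, which 1.40% of genes had in that comparison, was reached by 5 of the 19. *Slc39a4* fell there (log2 -1.54, SE 0.16, adjusted p = 6.74e-19), and so did *Tubb2a* (log2 -1.10, SE 0.24, adjusted p = 0.00171). *Dsg1c* (log2 1.90, SE 0.29, adjusted p = 7.72e-08), *Slc43a1* (log2 1.07, SE 0.24, adjusted p = 0.00253) and *Mt1* (log2 0.85, SE 0.22, adjusted p = 0.0183) rose. Of the genes under the fold threshold, *Slc30a1* (log2 0.82, SE 0.14, adjusted p = 3.72e-06), *Tef* (log2 0.89, SE 0.18, adjusted p = 0.00031), *Gclc* (log2 -0.59, SE 0.11, adjusted p = 4.58e-05), *Gsto1* (log2 0.49, SE 0.07, adjusted p = 4.59e-08) and the inositol polyphosphate kinase gene *Ipmk*, named after its values were seen (log2 0.36, SE 0.10, adjusted p = 0.0255), passed with the same direction as well. *G6pc* had a log2 fold change of -0.77 in the Dex-injected livers, which did not pass (adjusted p = 0.351), and the difference between its effects was not shown (interaction adjusted p = 1).

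The zinc effect differed between the PBS-injected and the Dex-injected livers for 4 of the 19 genes by the interaction term of the model. That term had an adjusted p under 0.05 for 0.0823% of the 10937 genes tested. Past the fold threshold as well were 0.0549% of genes, with 0.0183% higher and 0.0366% lower. The 19 genes were chosen by their zinc effect under PBS, which is part of this term, so their share cannot be compared directly with that of all genes. *Mt1* stood at 7556 ± 57.8 in water-Dex and 13593 ± 1388 in zinc-Dex, so that zinc added 0.85 on the log2 scale where it added 3.87 under PBS (interaction adjusted p = 4.22e-17). *Mt2* stood at 2397 ± 146 in water-Dex and 3877 ± 376 in zinc-Dex (log2 0.69 against 5.38, interaction adjusted p = 2.82e-16). The metallothionein levels of water-Dex livers were thus above those of zinc-PBS livers in the means. The zinc-PBS means were 5118 for *Mt1* and 1171 for *Mt2*, against 350 and 27.9 in water-PBS. The interaction term compares ratios, and in mean normalised reads neither gene rose less with zinc under Dex than under PBS. *Phlda1* was at 132 and 128 in the Dex-injected groups (interaction adjusted p = 0.0173), and *Slc25a25* at 3581 and 3289.6 (interaction adjusted p = 9.32e-05), with no zinc call for either.

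**Figure D5:**
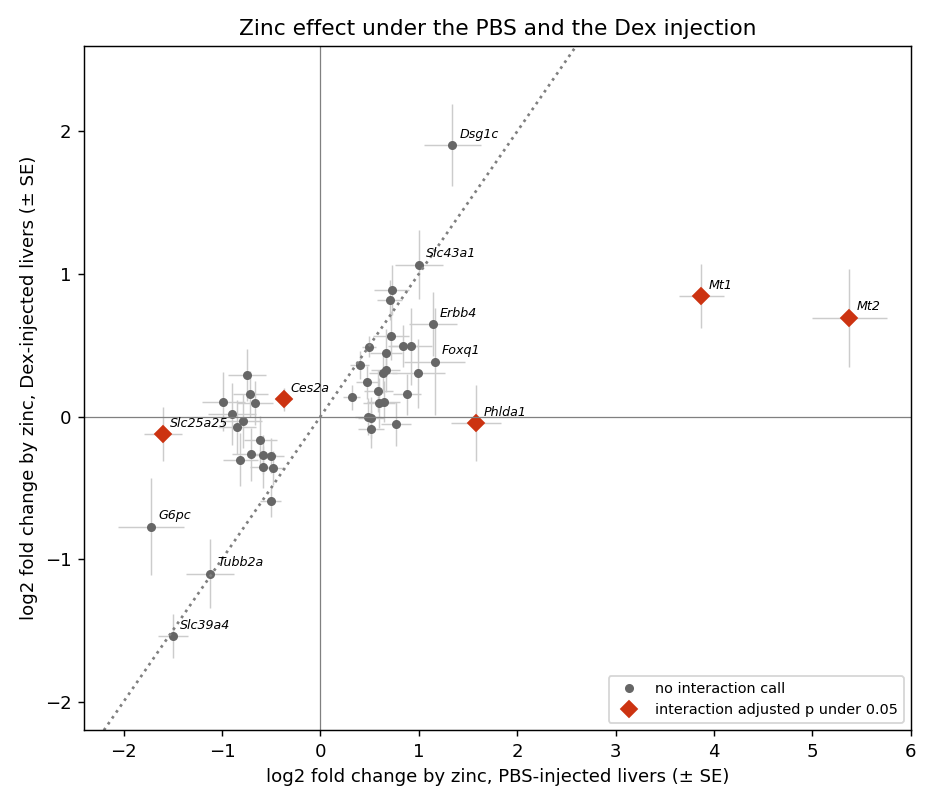
Log2 fold change by zinc in PBS-injected livers (horizontal) and in Dex-injected livers (vertical), each ± SE, for the 48 genes with an adjusted p under 0.05 in PBS-injected livers; the dotted line marks equal effects. *Slc39a4*, *Tubb2a* and *Slc43a1* lie close to the line, while *Mt1* and *Mt2*, at 3.87 and 5.38 across but 0.85 and 0.69 up, lie far below it.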

How the data were processed

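RNA-seq was done on 12 mouse livers, 3 mice per group. Per the study's methods, the authors made stranded single-end TruSeq libraries, sequenced them on a NextSeq 500 instrument, mapped the reads to the mm10 genome with HISAT 2.0.4 and counted them per gene with featureCounts, leaving out reads that map to several places. The deposited values are raw counts per Ensembl gene, neither normalised nor pooled. The annotation release and strand setting are not given in the sources used here. Symbols and coordinates of 54809 of the 54838 identifiers came from GENCODE M21 (GRCm38).

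The 13255 genes that reached 10 counts in 3 or more of the 12 libraries were fitted with DESeq2 1.42.0 in R 4.3.3, following the study's choice of tool, with 1 coefficient per group, the Wald test, unshrunken fold changes and the default independent filtering. Independent filtering left 9396 genes with a Benjamini-Hochberg adjusted p. Intervals are 95% Wald intervals. A Wald test against the fold threshold of 0.8 gave the genes shown to have changed by less, called bounded. Alternatives were edgeR 4.0.16 quasi-likelihood, other normalisation and filters, a replicate block, only the 6 libraries, and each library left out. The fitting was tested on simulated data. Nothing beyond the number of mice separates the replicates in the labels, and p-values measure the spread between these samples. Counting error is included in the fits.

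The genes named were all called genes, all zinc storage and transport genes, in each other list the members with an adjusted p under 0.05 and the 2 most abundant, the 10 largest changes under the fold threshold, and inflammatory or early genes at over 4 times the next library in 1 library. Some genes that this rule names are not reported here. The members and gene lists were chosen with earlier results of these data known.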

Additional observations from a re-analysis of the deposited data

Results flagged for a closer look

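The effect of zinc differed between Dex-injected and PBS-injected livers, by the DESeq2 interaction term across all genes, for 5 of the 48 genes with an adjusted p under 0.05. These 48 genes were chosen by their zinc effect under PBS, which is part of that term. Expressed as the effect under Dex minus that under PBS on the log2 scale, the difference was -3.02 for *Mt1* and -4.68 for *Mt2*, whose log2 fold changes were smaller under Dex. It was -1.63 for *Phlda1*, whose rise with zinc under PBS was not seen under Dex. It was 1.48 for *Slc25a25*, whose fall with zinc under PBS was not seen under Dex. It was 0.49 for the carboxylesterase gene *Ces2a* (interaction adjusted p = 0.0406), which fell under PBS and had a log2 fold change of 0.12 under Dex.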

How the results depend on the processing

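Against 19 genes called, 11 higher and 8 lower, edgeR's quasi-likelihood test called 9, with 5 higher and 4 lower, and dropping the fold threshold gave 48, with 28 higher and 20 lower. Leaving out 1 library at a time gave 10 to 38 calls, 4 to 23 higher and 6 to 15 lower, with 10 without zinc-PBS 1 and 38 without water-PBS 3. Without zinc-PBS 1, 6 of the 19 were still called. Of the 5 called genes that passed in Dex-injected livers, edgeR gave 2 and the replicate block 3, and of the 4 interactions edgeR gave 2. Same-numbered livers did not deviate together (r = 0.0435, 0.0324 and -0.0955), so the numbers were not taken to pair the mice, and the fit with a replicate block called 17 genes, 13 of them among the 19. The cause of these differences was not tested. None of the 48 genes with an adjusted p under 0.05 reversed its direction under any alternative, while some uncalled genes did, such as *Nfkbiz* (1.70 to -0.12) and *Ier3* (2.01 to -0.27) without zinc-PBS 1. Genes at low counts had wide intervals, and 3859 genes received no adjusted p.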
